A study of Homo sapiens with 6 samples.

Results

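The transcripts of 10 genes of the endosomal sorting complexes required for transport (ESCRT), the machinery that pinches off and reseals membrane, were followed in HGC-27 and AGS cells, 2 established lines of human stomach cancer. The 10 genes were picked by symbol among the 51103 genes of the deposited tables. They were CHMP1A, CHMP2A, CHMP3, CHMP4B, CHMP4C, CHMP6, VPS4A, VPS4B, PDCD6IP (the gene of ALIX) and TSG101. All 10 were detected in every library, and all 10 passed the filter on low counts that left 17617 genes for testing.

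ESCRT proteins act in sequence. TSG101 and ALIX arrive at a damaged or budding membrane and bring in the ESCRT-III proteins, of which CHMP6 starts and CHMP4 proteins build the filament, while CHMP2A, CHMP3 and CHMP1A join it and help it to constrict. The ATPases VPS4A and VPS4B take the filament apart, and the wound or bud neck closes. NINJ1, the gene delivered by the virus in this study, encodes a surface protein that clusters during lytic cell death and breaks the plasma membrane, so it acts on the membrane in the direction opposite to repair.

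Polyadenylated RNA was sequenced from HGC-27 and AGS cells that received a lentivirus for NINJ1 overexpression or served as negative control, with RNA harvested at 48 hours. There was 1 control library per line and there were 2 libraries labelled NINJ1 per line, 6 in all. Whether the transduced cells were a pool or a clone is not given in the sources used here, and no label says that the libraries of a group came from separate cultures, so p-values below measure only the spread between these libraries, which may be technical. For the pair of libraries labelled NINJ1 replicate 2, the sample titles and the names of the deposited tables give opposite lines. The lines were taken from the table names. As a check, 15 genes were taken whose counts were 100 or more in the undisputed HGC-27 pair and 0 in the undisputed AGS pair: of these, 0 reached 10 counts in the replicate 2 library named AGS and 15 in the one named HGC-27, and of 13 genes chosen the same way for AGS, 13 and 0 did. Counts with the lines as titled are given for each comparison.

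Library totals ran from 12619684 to 18175697 counts. The HGC-27 control stood apart: genes with over 60% GC made up 2.31% of its counts and 9.25% to 11.3% of the counts of the other 5 libraries, and 19371 genes had a count in it against 22839 to 23396. Both HGC-27 comparisons with the control rest on this library and are therefore given with and without a GC correction. The 10 ESCRT genes together took 617 to 726 CPM (counts scaled to the library total), with the HGC-27 control, at 705, inside the range of the others. KRT8 and KRT18, keratins of simple epithelium, had FPKM (CPM divided by the kilobases of exon) of 48.6 to 82.8 and 64.6 to 111, whereas the epithelial cadherin CDH1 did not exceed 0.454 and KRT19 did not exceed 0.034.

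NINJ1 itself had an FPKM of 1.48 in the HGC-27 control and of 6.88 and 7.53 in the HGC-27 libraries labelled NINJ1. In AGS the control had 10.9, and the libraries labelled NINJ1 had 7.81 and 6.29. Its level thus lay above the control in HGC-27 and below it in AGS. The log2 difference was 1.89 in HGC-27 (SE 0.24, edgeR adjusted p = 3.22e-08) and -0.68 in AGS (SE 0.19, edgeR adjusted p = 0.0148), and with the GC correction the HGC-27 value was 0.58 (edgeR adjusted p = 0.0334). The tables do not separate vector transcripts from those of the cells' own gene, and the AGS direction goes against the label, so AGS libraries are called by their label throughout.

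The levels of the 10 genes covered a wide range within each cell line. CHMP4B, the main filament subunit, had the highest level in every library, with an FPKM of 53.6 to 80.9 and a median of 66.6, and made up 33.9% to 39.2% of the summed FPKM of the 10. PDCD6IP followed with a median FPKM of 31.2, then CHMP1A with 21.4, CHMP2A with 16.6, TSG101 with 15.6, VPS4B with 9.99, CHMP4C with 6.54, VPS4A with 6.15, CHMP3 with 5.40 and CHMP6 with 1.09. Among neighbours in this order, the ranges over the 6 libraries separated CHMP4B from PDCD6IP, TSG101 from VPS4B, and CHMP3 from CHMP6, and overlapped for all other neighbours. The order depends in part on the length that the authors divided by, which is the union of all annotated exons of a gene. Per kilobase of the principal transcript, TSG101 moved from rank 5 to rank 3 (median 32.8 CPM per kilobase), CHMP1A from 3 to 5 (27.6) and CHMP3 from 9 to 7 (11.9), with CHMP4B still first and CHMP6 still last.

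**Figure D1:**
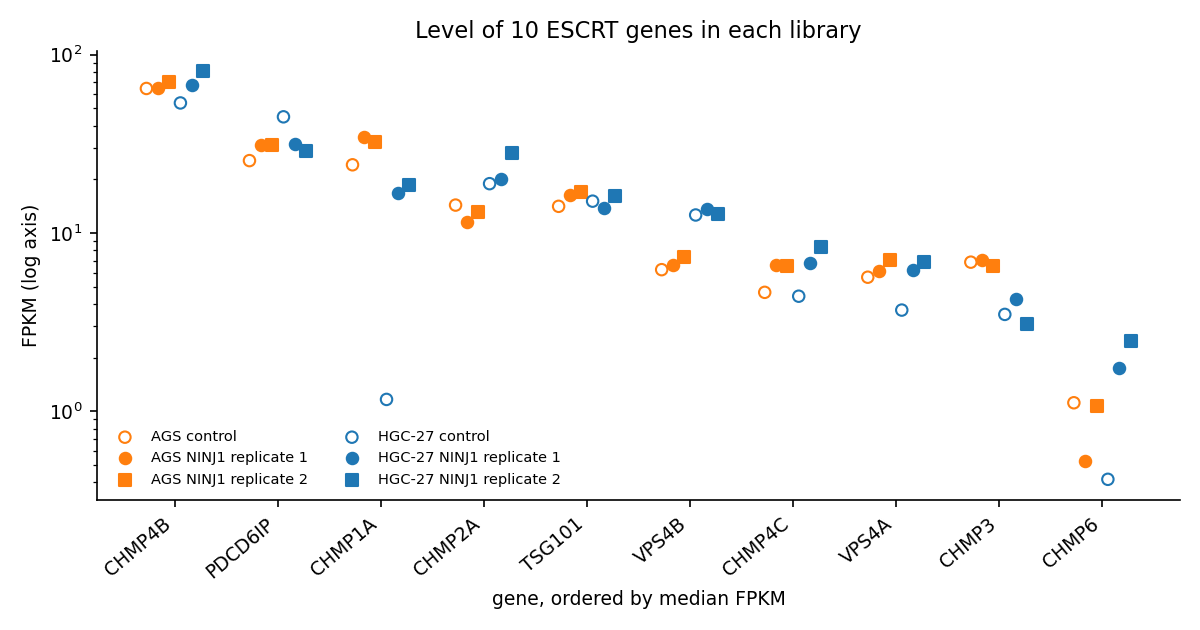
Level of each of the 10 ESCRT genes in the 6 libraries (FPKM, logarithmic axis, 1 point per library, orange for AGS and blue for HGC-27, open for controls, circles and squares for replicates 1 and 2). CHMP4B points lie at 53.6 to 80.9 and CHMP6 points at 0.416 to 2.48, and the lone low CHMP1A point at 1.17 is the HGC-27 control.

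The first comparison set the lines side by side in the libraries labelled NINJ1, which gives 2 libraries a line and leaves the HGC-27 control out of the contrast. Of the 10 genes, 5 differed (edgeR quasi-likelihood test, Benjamini-Hochberg adjusted p under 0.05), 2 higher and 3 lower in AGS, beside 40.2% of all genes tested in the same comparison. The share is near that of all genes, and the median log2 difference of the 10 was -0.067 against -0.0057 over all genes. Both directions were also near the shares of all genes, of which 20.2% were higher and 20% lower in AGS. CHMP1A and CHMP3 were higher in AGS, and CHMP2A, VPS4B and CHMP6 were higher in HGC-27.

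CHMP1A, a late ESCRT-III subunit that recruits VPS4, had an FPKM of 34.5 and 32.5 in the AGS libraries labelled NINJ1 and of 16.7 and 18.6 in those of HGC-27. The AGS control, at 24.1, also lay above all 3 HGC-27 libraries, and the HGC-27 control was at 1.17. The log2 difference in the libraries labelled NINJ1 was 0.92 (SE 0.12, 1.89-fold, edgeR adjusted p = 1.05e-07). CHMP3, the partner of CHMP2A in the filament, had 7.06 and 6.53 in AGS against 4.27 and 3.10 in HGC-27, with controls at 6.86 and 3.50. Its 3 AGS libraries lay above its 3 HGC-27 libraries, and its log2 difference was 0.88 (SE 0.14, 1.84-fold, edgeR adjusted p = 6.98e-06).

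CHMP2A went the other way, with an FPKM of 11.5 and 13.1 in the AGS libraries labelled NINJ1 and of 20.0 and 28.3 in those of HGC-27. Its controls, 14.3 in AGS and 18.9 in HGC-27, kept the lines apart. The log2 difference was -0.98 (SE 0.15, 1.97-fold lower in AGS, edgeR adjusted p = 2.31e-06). VPS4B had 6.65 and 7.35 in AGS and 13.7 and 12.8 in HGC-27, with controls at 6.23 and 12.6. Replicates of VPS4B lay close together and the lines far apart, at a log2 difference of -0.92 (SE 0.13, 1.90-fold lower in AGS, edgeR adjusted p = 5.59e-07).

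CHMP6, which links the upstream complexes to CHMP4, was the lowest of the 10, with 14 and 30 counts in the AGS libraries labelled NINJ1 and 54 and 79 counts in those of HGC-27. Its log2 difference was -1.41 (SE 0.37, 2.65-fold lower in AGS, edgeR adjusted p = 0.00240). The controls did not keep this order, at 33 counts in AGS and 16 in HGC-27, and the call was lost with DESeq2 (log2 -1.42, DESeq2 adjusted p = 0.0845) and without AGS NINJ1 replicate 1 (log2 -0.98, edgeR adjusted p = 0.0760).

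The remaining 5 genes did not pass the test. Their intervals rest on the spread between these libraries, which may be technical, so they do not bound a difference between the lines in general. The 95% interval of the log2 difference was -0.37 to 0.090 for CHMP4B, -0.58 to 0.17 for CHMP4C, -0.27 to 0.29 for VPS4A, -0.17 to 0.25 for PDCD6IP and -0.099 to 0.40 for TSG101. In the libraries labelled NINJ1, the 2 upstream recruiters and both CHMP4 genes were therefore among those with no detected difference. Between the controls, 1 per line and so without a test, the log2 difference was -1.16 for PDCD6IP and -0.44 for TSG101. It was -0.077 for CHMP4B, -0.27 for CHMP4C and 0.26 for VPS4A. Over all 6 libraries, 4 of the 10 genes showed no overlap between the 3 AGS and the 3 HGC-27 libraries (CHMP1A, CHMP2A, CHMP3 and VPS4B), beside 34.1% of all genes tested. AGS lay above for 2 of them and below for 2, where 18.5% of all genes lay above and 15.7% below. With the GC correction the 5 calls were kept, beside 43.8% of all genes, at log2 differences of 1.04 for CHMP1A, 0.82 for CHMP3, -0.93 for CHMP2A, -1.02 for VPS4B and -1.22 for CHMP6. With the lines as titled, 0 of the 10 and 0 of all 17617 genes passed in edgeR.

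**Figure D2:**
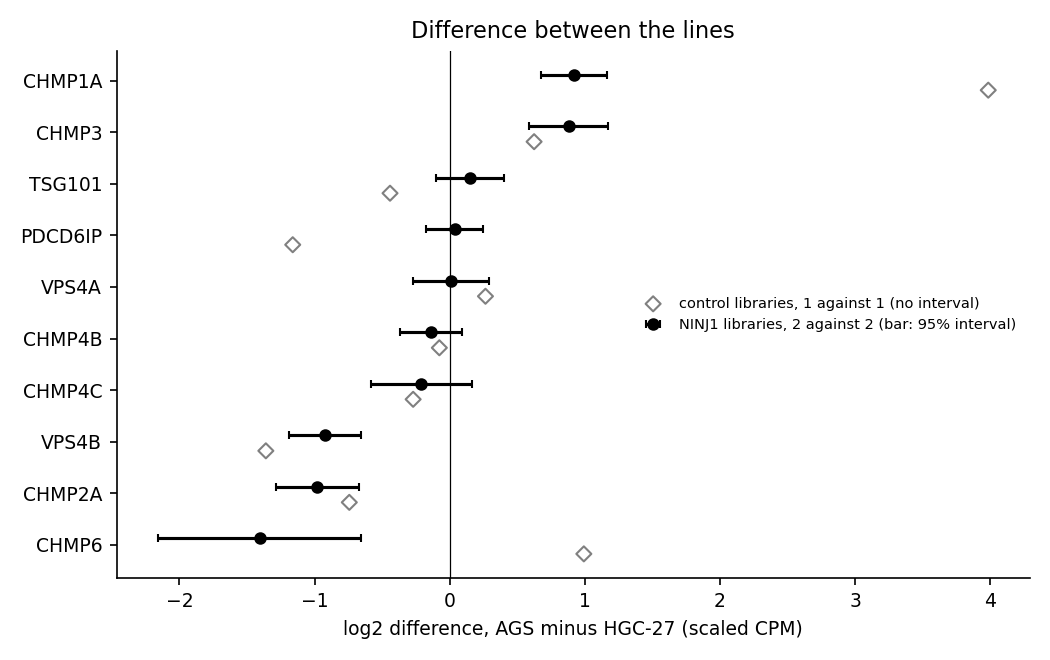
Log2 difference between AGS and HGC-27 for each of the 10 genes (horizontal axis, on CPM after TMM scaling, positive where higher in AGS), as the estimate in the 4 libraries labelled NINJ1 with its 95% interval and, as a separate symbol with no interval, the difference between the 2 control libraries. CHMP1A and CHMP3 lie right of 0, CHMP2A, VPS4B and CHMP6 lie left of it, and the control point of CHMP1A, at 3.99, lies far outside its interval. The control points of PDCD6IP (-1.16), VPS4B (-1.36), TSG101 (-0.44) and CHMP6 (0.99) lie outside theirs too.

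VPS4A and VPS4B proteins can assemble together, and the ratio of their mRNAs was also read within each library, where scaling between libraries has no part. The FPKM of VPS4B divided by that of VPS4A was 1.10 for the AGS control, 1.09 for AGS NINJ1 replicate 1 and 1.04 for replicate 2. In HGC-27 it was 3.41 in the control and 2.22 and 1.85 in the libraries labelled NINJ1. By FPKM, AGS thus had near-equal values of both mRNAs, while VPS4B exceeded VPS4A in all 3 HGC-27 libraries. How near the AGS ratio is to 1 is uncertain. Other genes overlap 36.4% of the exon bases of VPS4A and 0% of those of VPS4B. Of their 50-base stretches, 29.7% and 0.58% occur in transcripts of other genes. Per principal transcript length the ratio was 0.976 to 1.03 in AGS and 1.74 to 3.21 in HGC-27. The mRNA of VPS4B has 39.2% GC and that of VPS4A 54.0%, and the highest ratio belonged to the HGC-27 control, whose GC-rich genes had few counts. CHMP3 divided by CHMP2A gave 0.479, 0.616 and 0.498 in AGS and 0.185, 0.213 and 0.109 in HGC-27, again with no overlap between the lines. CHMP4B exceeded CHMP4C by 9.75 to 13.9 times in the 6 libraries, with the lines overlapping.

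**Figure D3:**
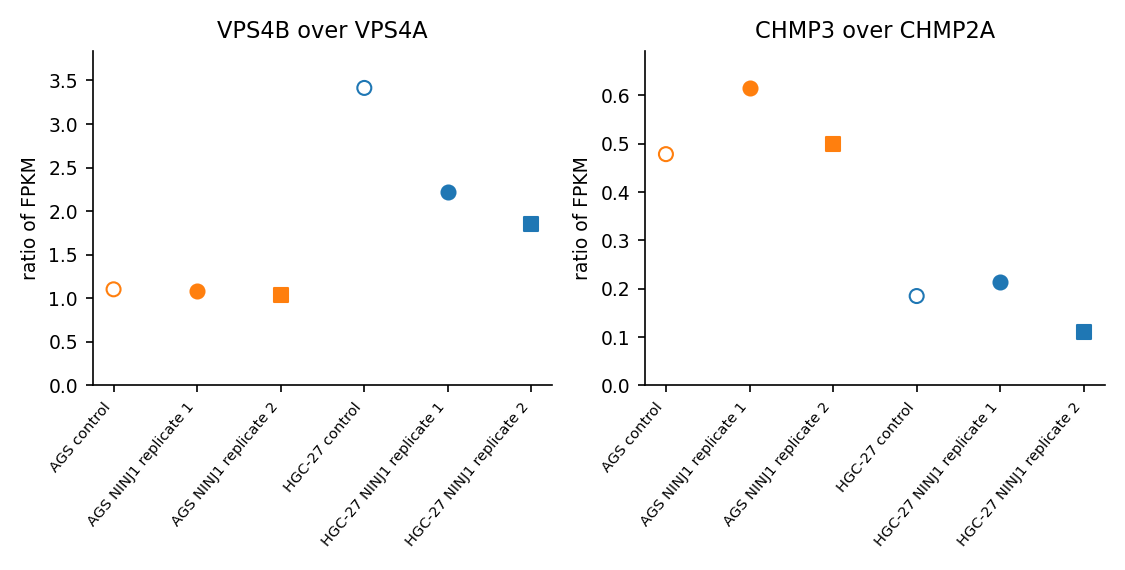
Within-library FPKM ratios of paired ESCRT genes (vertical axes from 0, 1 point per library, AGS in orange and HGC-27 in blue, open symbols for controls), VPS4B over VPS4A on the left and CHMP3 over CHMP2A on the right. The VPS4B to VPS4A ratio is 1.04 to 1.10 in AGS and 1.85 to 3.41 in HGC-27, and the CHMP3 to CHMP2A ratio is 0.479 to 0.616 in AGS and 0.109 to 0.213 in HGC-27.

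The promoters of the paralogous ATPases and of CHMP1A and CHMP2A are shown because CHMP1A was higher and CHMP2A and VPS4B lower in AGS, whereas VPS4A, the paralog of VPS4B, showed no detected difference. Each run is the 250 bases before the gene's RefSeq start on GRCh38.p14, written 5′ to 3′ on the gene's strand. Capitals mark the GC box GGGCGG or its reverse complement CCGCCC. The windows are chr16:89657709-89657958 (minus strand) for CHMP1A, chr19:58555106-58555355 (minus) for CHMP2A, chr16:69311100-69311349 (plus) for VPS4A and chr18:63422477-63422726 (minus) for VPS4B.
CHMP1A: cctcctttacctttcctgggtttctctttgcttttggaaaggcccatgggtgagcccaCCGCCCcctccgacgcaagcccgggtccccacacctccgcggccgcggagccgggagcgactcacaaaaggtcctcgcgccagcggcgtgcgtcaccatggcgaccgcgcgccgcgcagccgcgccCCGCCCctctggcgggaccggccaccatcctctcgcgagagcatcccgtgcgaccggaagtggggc
CHMP2A: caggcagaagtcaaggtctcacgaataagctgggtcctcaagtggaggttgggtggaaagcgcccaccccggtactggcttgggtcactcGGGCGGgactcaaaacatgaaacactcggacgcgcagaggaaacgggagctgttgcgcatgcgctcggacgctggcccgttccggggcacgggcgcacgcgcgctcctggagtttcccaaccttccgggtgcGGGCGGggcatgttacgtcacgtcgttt
VPS4A: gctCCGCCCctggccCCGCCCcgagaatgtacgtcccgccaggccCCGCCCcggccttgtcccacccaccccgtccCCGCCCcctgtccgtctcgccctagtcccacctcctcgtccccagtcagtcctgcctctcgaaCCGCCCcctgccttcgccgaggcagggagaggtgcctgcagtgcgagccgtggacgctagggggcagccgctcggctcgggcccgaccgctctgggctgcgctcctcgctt
VPS4B: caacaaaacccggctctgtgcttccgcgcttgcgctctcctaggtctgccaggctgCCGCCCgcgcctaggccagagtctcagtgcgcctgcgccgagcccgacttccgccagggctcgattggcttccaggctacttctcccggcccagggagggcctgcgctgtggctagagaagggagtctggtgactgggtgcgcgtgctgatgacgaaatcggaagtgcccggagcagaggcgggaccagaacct
The 4 windows held 31, 26, 26 and 21 CpG dinucleotides in that order, where the median of 35116 promoters was 11, and 71.2%, 63.6%, 74.8% and 66.4% GC, where the median was 58%. GC boxes numbered 2 in CHMP1A, 2 in CHMP2A, 5 in VPS4A and 1 in VPS4B, and 42.6% of all promoters of that length held at least 1 on either strand. No TATAAA was found in these 4 windows or in those of CHMP4B, PDCD6IP and TSG101, and 10.7% of all promoters held one. CACGTG occurred once among the 7 members with a promoter entry, in PDCD6IP, and 6.345% of all promoters held it.

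The 31 other ESCRT genes on a list covering ESCRT-0, ESCRT-I, ESCRT-II, further ESCRT-III subunits and cofactors also differed in both directions between the lines. In the libraries labelled NINJ1, 5 were higher and 8 lower in AGS by edgeR, where all genes gave 20.2% higher and 20% lower, and their median log2 difference was 0.016. Of the entry complex ESCRT-0, HGS, which binds ubiquitinated cargo, was higher in AGS (log2 0.63, SE 0.11, edgeR adjusted p = 1.37e-05). Among ESCRT-I subunits, VPS37B was higher (0.68, SE 0.15), whereas UBAP1 (-0.87, SE 0.12) and VPS28 (-0.75, SE 0.14) were lower. CHMP5 (-0.98, SE 0.11) and CHMP2B (-0.60, SE 0.11), both ESCRT-III subunits, were lower in AGS. SPAST, a microtubule-severing ATPase that binds ESCRT-III (0.94, SE 0.14), and CEP55, the midbody scaffold that recruits ALIX and TSG101 (0.52, SE 0.11), were higher, while VTA1, a VPS4 cofactor (-0.53, SE 0.11), and PTPN23, an ALIX relative (-0.49, SE 0.11), were lower. None of the 3 ESCRT-II genes passed in edgeR. Of 21 tested genes of calcium-dependent repair outside ESCRT, 5 were higher and 6 lower, among them the annexin ANXA6 (1.25, SE 0.13) and the calpain CAPN2 (0.63, SE 0.10) higher and the caveola coat gene CAVIN1 (-0.61, SE 0.12) and the ferlin MYOF (-0.43, SE 0.10) lower. These 2 counts were 2 and 3 without AGS NINJ1 replicate 2, and 3 and 1 without AGS NINJ1 replicate 1. With the lines as titled, 0 genes of either list passed in edgeR.

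The second comparison, NINJ1 label against control within AGS, found few differences among the 10 genes. Only CHMP1A passed, as 1 of 10, beside 15% of all genes tested. CHMP1A had an FPKM of 24.1 in the control, against 34.5 and 32.5 in the AGS libraries labelled NINJ1. Both lay above the single control, with a log2 difference of 0.42 (SE 0.15, 1.34-fold, edgeR adjusted p = 0.0465). The call was close to the threshold. It was lost with DESeq2 (log2 0.41, DESeq2 adjusted p = 0.137), without AGS NINJ1 replicate 1 (edgeR adjusted p = 0.297) and without AGS NINJ1 replicate 2 (edgeR adjusted p = 0.250), and it was kept with the GC correction (log2 0.63, edgeR adjusted p = 2.95e-04). With the lines as titled it was lost (log2 0.083, edgeR adjusted p = 0.978), as 0 of all genes passed in that fit.

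The other 9 genes gave log2 differences from -0.53 to 0.44 in AGS, and none passed by edgeR or DESeq2. PDCD6IP had an FPKM of 25.5 in the control and 31.2 in both libraries labelled NINJ1, CHMP4C had 4.65 against 6.58 and 6.50, and TSG101 had 14.1 against 16.3 and 16.9. In these 3 genes both libraries labelled NINJ1 lay above the control, but with 1 control library the 95% intervals of the log2 difference reached from -0.022 to 0.50 for PDCD6IP, -0.048 to 0.92 for CHMP4C and -0.13 to 0.49 for TSG101. PDCD6IP, at a log2 difference of 0.24 in each case, passed without HGC-27 NINJ1 replicate 1 (edgeR adjusted p = 0.0337) and without replicate 2 (edgeR adjusted p = 0.0329), as these libraries enter the shared estimate of spread. CHMP4B was close to level, at 64.7 against 65.3 and 70.1. CHMP2A had 14.3 against 11.5 and 13.1, and CHMP6 had 33 counts against 14 and 30, so its interval was the widest (-1.50 to 0.43). Across the 10, 7 differences were positive and 3 negative, with a median of 0.14 against 0.0036 over all genes.

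Among the 31 other ESCRT genes, 7 were higher and 0 lower in the AGS libraries labelled NINJ1 by edgeR, where 5.73% of all genes were higher and 9.3% lower, and 25 of the 31 differences were positive with a median of 0.29. The ESCRT-I subunit VPS37C had the smallest adjusted p (log2 0.90, SE 0.17, edgeR adjusted p = 2.05e-04). VPS37A (0.46, SE 0.15), the ESCRT-0 subunit STAM2 (0.50, SE 0.17), the nuclear envelope ESCRT-III protein CHMP7 (0.58, SE 0.15), CEP55 (0.54, SE 0.13), PTPN23 (0.57, SE 0.14) and the deubiquitinase STAMBP (0.46, SE 0.16) rose too. The count was 4 with DESeq2 and 10 with the GC correction, 1 without AGS NINJ1 replicate 2 and 2 without AGS NINJ1 replicate 1, 14 and 13 without HGC-27 NINJ1 replicate 1 or 2, and 0 with the lines as titled. The share of all genes called higher moved with it, from 1.15% without AGS NINJ1 replicate 2 to 12.7% without either HGC-27 library labelled NINJ1, and was 8.5% with the GC correction, under which STAM2 (0.39, edgeR adjusted p = 0.0698) was lost. Of the 21 genes of calcium-dependent repair, 3 rose and 3 fell, with CAVIN1 (0.53, SE 0.15) and CAPN2 (0.49, SE 0.13) higher and MYOF (-0.48, SE 0.12) and ANXA4 (-0.54, SE 0.14) lower. Those counts were 0 and 0 without AGS NINJ1 replicate 2, 1 and 0 without AGS NINJ1 replicate 1, 7 and 7 without either HGC-27 library labelled NINJ1, and 0 and 0 with the lines as titled.

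Marker genes of other cells moved with this comparison. The summed FPKM of 9 fibroblast and endothelial markers came to 11.4 for the AGS control, against 3.98 and 3.36 for the AGS libraries labelled NINJ1, with COL1A1 and PDGFRB giving most of it. Of the 5 markers tested, 4 were lower there by edgeR, beside 9.3% of all genes. DCN was among the 4, with only 7 counts in the AGS control and 0 in both AGS libraries labelled NINJ1. LUM was at 0 in all 3 AGS libraries, and COL1A2 and DCN did not exceed 0.039 FPKM. Of 7 epithelial markers tested, 3 were lower, beside the same 9.3% of all genes. Blood cell markers summed to 1.45 in the control and to 0.247 and 1.16, with CD3E, HBB and MS4A1 at 0 in every library. Their part in the ESCRT differences was not tested, and in bulk RNA fewer cells of a type and less RNA per cell cannot be told apart.

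In HGC-27, the third comparison, 5 of the 10 genes differed between the libraries labelled NINJ1 and the control, beside 63% of all genes tested. CHMP1A, CHMP6 and VPS4A were higher and PDCD6IP and TSG101 lower. The 3 higher genes have mRNAs with 61.5%, 64.2% and 54.0% GC, and the 2 lower ones have 39.9% and 44.4%. Of the genes not called, CHMP2A has 55.3% GC (log2 -0.042), CHMP4B 53.4% (0.076) and CHMP4C 45.3% (0.37). CHMP3 has 44.1% (-0.32) and VPS4B 39.2% (-0.33). The control was the library with few counts from GC-rich genes, and the cause of these differences was not tested. The median log2 difference over the 10 was 0.017 against 0.12 over all genes.

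CHMP1A had 68 counts in the HGC-27 control and 776 and 900 in the libraries labelled NINJ1, or an FPKM of 1.17 against 16.7 and 18.6. The control value was the lowest CHMP1A level of all 6 libraries by a wide margin. The log2 difference was 3.52 (SE 0.20, 11.5-fold, edgeR adjusted p = 5.99e-16), and with the GC correction it was 1.50 (edgeR adjusted p = 1.39e-07). CHMP1A was the 1 gene of the 10 that kept its direction and its call under all 12 alternatives here, from 1.50 with the GC correction to 4.00 with the lines as titled.

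PDCD6IP had 7367 counts in the HGC-27 control and 4146 and 3933 in the libraries labelled NINJ1, which is an FPKM of 44.8 against 31.7 and 28.9. The control was the highest PDCD6IP value of all 6 libraries. It fell by 0.96 on the log2 scale in the libraries labelled NINJ1 (SE 0.12, 1.95-fold, edgeR adjusted p = 2.43e-08), and with the GC correction the difference was -0.30 (edgeR adjusted p = 0.00987). ALIX, its product, binds CHMP4 directly.

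CHMP6 had 16 counts in the control against 54 and 79, with a log2 difference of 1.95 (SE 0.50, 3.86-fold, edgeR adjusted p = 0.00102) that turned to -0.51 with the GC correction (edgeR adjusted p = 0.437). VPS4A had an FPKM of 3.70 against 6.17 and 6.92, with a log2 difference of 0.43 (SE 0.17, edgeR adjusted p = 0.0325) that turned to -0.39 with the GC correction (edgeR adjusted p = 0.0303). These 2 genes thus had no direction that held under both treatments of GC. The VPS4A call was also lost with DESeq2 (log2 0.37, DESeq2 adjusted p = 0.187) and, at edgeR adjusted p = 0.0721 to 0.0724, without either AGS library labelled NINJ1 or without HGC-27 NINJ1 replicate 2. TSG101 had an FPKM of 15.1 in the control, which lies between the 13.8 and 16.1 of the libraries labelled NINJ1. Its log2 difference of -0.41 (SE 0.15, edgeR adjusted p = 0.0154) came with a scaling factor of 0.799 for the control against 1.06 and 1.05, and with the GC correction it was -0.028 (edgeR adjusted p = 0.872). On the log2(FPKM + 1) scale, which has no such factor, it was -0.018 (limma adjusted p = 0.913).

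With the GC correction 7 of the 10 genes passed in HGC-27, 3 higher and 4 lower, beside 49.2% of all genes in that fit, 22.8% higher and 26.4% lower. CHMP2A (-1.08, edgeR adjusted p = 1.46e-06) and CHMP4B (-0.66, edgeR adjusted p = 1.27e-05) then joined the lower genes, and CHMP4C (0.69, edgeR adjusted p = 0.00947) and VPS4B (0.36, edgeR adjusted p = 0.0202) the higher ones. Without the correction those 4 had log2 differences of -0.042, 0.076, 0.37 and -0.33 and did not pass. With the lines as titled, 1 of the 10 passed, beside 12.2% of all genes in that fit. It was CHMP1A at 4.00 (edgeR adjusted p = 0.0391), and PDCD6IP was at -0.91 (edgeR adjusted p = 0.0577).

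**Figure D4:**
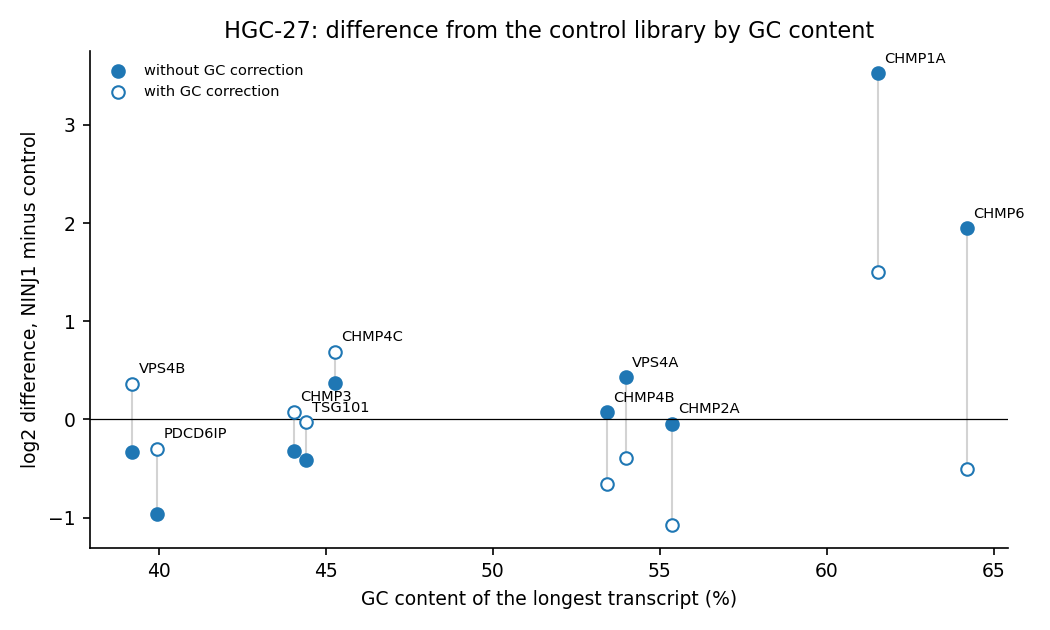
Log2 difference between the HGC-27 libraries labelled NINJ1 and the HGC-27 control (vertical axis) against the GC content of the gene's longest transcript in percent (horizontal axis), for the 10 ESCRT genes. Filled points are without and open points with the GC correction, joined by a line for each gene. CHMP1A drops from 3.52 to 1.50 and CHMP6 from 1.95 to -0.51, while PDCD6IP, at 39.9% GC, goes from -0.96 to -0.30.

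The base composition in question can be read from the coding sequence of the 2 genes at the ends of this spread. Each run below is 120 bases of 1 coding exon from the GENCODE 29 annotation on GRCh38, 5′ to 3′ on the coding strand, with G and C in capitals. The CHMP1A stretch is chr16:89646595-89646714 (minus strand) with 64.2% GC, and the PDCD6IP stretch is chr3:33852488-33852607 (plus strand) with 35% GC.
CHMP1A: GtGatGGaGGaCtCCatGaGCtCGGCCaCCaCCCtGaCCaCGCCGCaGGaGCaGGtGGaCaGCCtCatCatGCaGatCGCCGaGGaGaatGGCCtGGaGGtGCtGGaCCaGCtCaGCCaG
PDCD6IP: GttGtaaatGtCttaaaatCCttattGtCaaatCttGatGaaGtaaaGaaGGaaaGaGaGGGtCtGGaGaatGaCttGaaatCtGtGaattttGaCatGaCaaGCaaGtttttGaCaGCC
Over all genes tested, the HGC-27 control deviated from each gene's mean over the 6 libraries by a median of -2.38 on the log2 scale for the 594 genes with over 65% GC and of 0.50 for the 6278 genes with over 35% and up to 45% GC. In the other 5 libraries the same medians were 0.20 to 0.78 and -0.19 to -0.040.

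The other ESCRT genes moved both ways in HGC-27, 15 higher and 9 lower of 31 by edgeR, where all genes gave 34% and 29.1%. VPS37C (log2 3.29, SE 0.21), the ESCRT-I subunit MVB12A (2.70, SE 0.22), PTPN23 (2.55, SE 0.16), CC2D1A, which binds CHMP4 (2.44, SE 0.19), and HGS (1.77, SE 0.15) were higher. CHMP2B (-1.07, SE 0.13), the deubiquitinase USP8 (-1.07, SE 0.13) and VTA1 (-1.01, SE 0.13) were lower. Smaller differences were seen for the ESCRT-II subunits VPS25 (0.57, SE 0.17) and VPS36 (-0.49, SE 0.16), for STAM2 (-0.41, SE 0.16) and VPS37A (-0.44, SE 0.14), and for the ESCRT-III subunits CHMP1B (0.62, SE 0.20), IST1 (0.42, SE 0.13) and CHMP5 (-0.41, SE 0.13). With the GC correction 11 of the 31 were higher and 8 lower, where 22.8% and 26.4% of all genes were, and several of the named genes turned or lost their call. HGS went to -0.56 (edgeR adjusted p = 3.80e-04) and CHMP5 to 0.26 (edgeR adjusted p = 0.0478), both past the threshold in the other direction. CC2D1A (-0.060), VPS25 (-0.32), VPS36 (0.18), STAM2 (0.31) and VPS37A (0.25) changed sign and did not pass. VPS37C (1.52), MVB12A (1.06), PTPN23 (0.43), CHMP2B (-0.35), USP8 (-0.42) and VTA1 (-0.30) kept their direction and their call at smaller sizes, and CHMP1B (1.21) and IST1 (0.81) at larger ones. With the lines as titled 5 of the 31 were higher and 1 lower, where 9.17% and 3.03% of all genes were. Of the 21 tested genes of calcium-dependent repair, 8 rose and 8 fell; 3 rose and 12 fell once GC was corrected for, and 2 rose and 1 fell with the lines as titled. EHD1, a membrane-shaping ATPase (1.88, SE 0.18), and the lysosomal calcium sensor SYT7 (2.10, SE 0.24) were higher, and MYOF (-1.18, SE 0.12) and ANXA5 (-1.19, SE 0.12) were lower. Once GC was corrected for, EHD1 (-0.075, edgeR adjusted p = 0.701) and SYT7 (0.38, edgeR adjusted p = 0.146) no longer passed, whereas MYOF (-0.99) and ANXA5 (-0.96) still did. Fibroblast and endothelial markers summed to an FPKM of 1.56 in the HGC-27 control and 5.56 and 5.92 in the libraries labelled NINJ1. Of these sums COL1A1 gave 0.812, 5.36 and 5.71. Epithelial markers summed to 208 against 145 and 170, mostly from KRT8 and KRT18. They moved both ways: of 7 tested, 3 were higher and 4 lower by edgeR, and 2 and 4 with the GC correction. CLDN4 had 0.725 in the control against 8.46 and 10.1, and KRT18 had 111 against 64.6 and 79.4. Blood cell markers summed to 0.203 against 0.612 and 1.17. Their part in the HGC-27 differences was not tested.

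The fourth comparison tested whether the difference between NINJ1 label and control itself differed between the lines, as AGS minus HGC-27. It did for 4 of the 10 genes, beside 54.2% of all genes tested. Of the 4, 2 were higher and 2 lower, where 23.9% and 30.2% of all genes were. The term was -3.10 for CHMP1A (SE 0.25, edgeR adjusted p = 2.31e-12), -2.48 for CHMP6 (SE 0.69, edgeR adjusted p = 0.00284), 1.20 for PDCD6IP (SE 0.18, edgeR adjusted p = 8.66e-07) and 0.59 for TSG101 (SE 0.21, edgeR adjusted p = 0.0179). All 4 rest on the HGC-27 control. With the GC correction the terms were -0.87 for CHMP1A (edgeR adjusted p = 0.00227) and 0.44 for PDCD6IP (edgeR adjusted p = 0.0121), and those of CHMP6 (0.29) and TSG101 (0.15) no longer passed, at edgeR adjusted p = 0.788 and 0.539. The CHMP6 term was also lost with DESeq2 (-2.45, DESeq2 adjusted p = 0.0689), that of TSG101 without AGS NINJ1 replicate 1 (0.63, edgeR adjusted p = 0.0592) or replicate 2 (0.56, edgeR adjusted p = 0.0995), and 0 of the 10 passed in edgeR with the lines as titled. CHMP2A (0.87), CHMP4B (0.70) and VPS4A (0.60) passed with the correction and not without it, which made 5 of the 10 beside 35.3% of all genes in that fit.

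**Figure D5:**
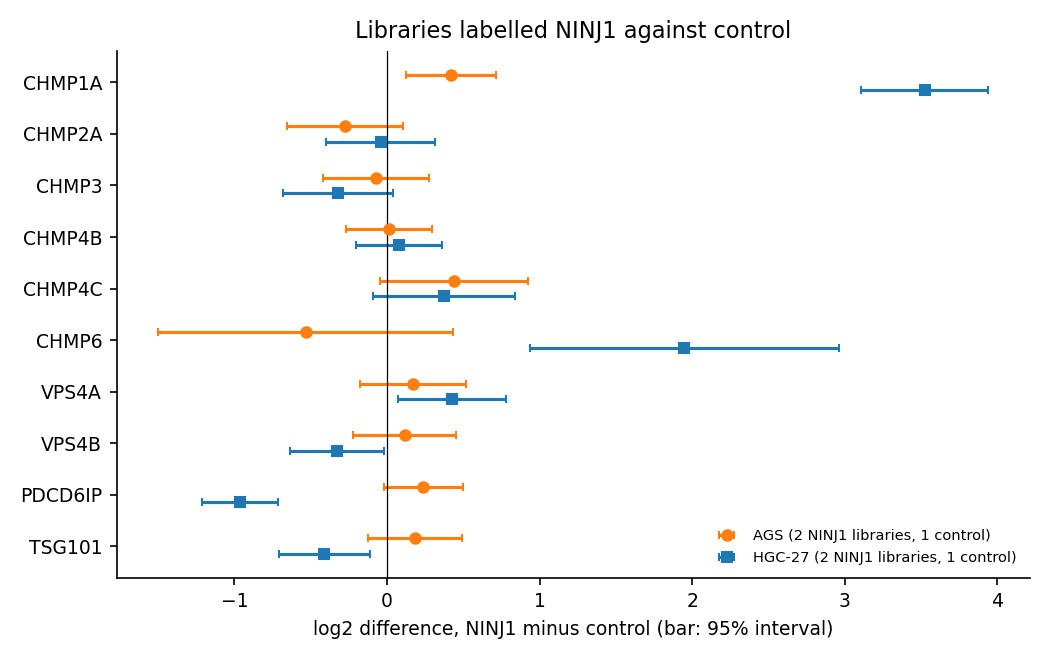
Log2 difference between libraries labelled NINJ1 and the control (horizontal axis) for each of the 10 genes, in AGS (circles) and HGC-27 (squares), with bars for the 95% interval before adjustment, 2 libraries against 1 in each line and no GC correction. The 2 lines lie farthest apart for CHMP1A (0.42 and 3.52), CHMP6 (-0.53 and 1.95) and PDCD6IP (0.24 and -0.96), whose intervals do not overlap, while those of the other 7 genes do.

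CHMP1A had the widest spread over the 6 libraries, 4.44 on the scale of log2 CPM. The 3 genes whose profile over the 6 libraries lay nearest to it, after each was centred on its own mean, were IFFO2 (mean absolute difference 0.087), RGS16 (0.11) and RHBDF1 (0.14). Each had its lowest count in the HGC-27 control, at 14, 0 and 27 counts, and RGS16 had at most 45 counts in any library. All 6 points of each profile share the depth and the base composition of those libraries.

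Where gene models overlap, part of a count is uncertain. The strand setting of the counting is not given in the sources used here, and no setting separates genes that overlap on the same strand. Of the exon bases of VPS4A (chr16:69311356-69326939), 36.4% overlap other genes. COG8, on the opposite strand, overlaps 22.0%, and AC026464.4, on the same strand and with 0 counts in every library, overlaps 21.0%. Of the 50-base stretches of VPS4A, 29.7% occur in transcripts of other genes. CHMP6 (chr17:80991598-81009517) shares 21.5% of its exon bases with an antisense gene, and CHMP4C (on chromosome 8) shares 13.4% with ZFAND1. Of the 50-base stretches of CHMP3 (chr2:86503431-86563479), 24.4% are shared, with the read-through gene RNF103-CHMP3 among the sharers. CHMP1A, CHMP2A and TSG101 share no such stretch, although 7.81% of the exon bases of TSG101 overlap LDHAL6A and YWHABP2 and 1.37% of those of CHMP1A overlap SPATA33. CHMP4B shares 2.13% of its stretches with the pseudogene CHMP4BP1, and PDCD6IP (chr3:33798352-33869707) shares 9.91%, mostly with its pseudogenes.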

How the data were processed

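The deposited tables give, for each gene and library, the whole-number counts of reads and the FPKM (CPM, the count scaled to the library total, divided by the kilobases of exon) computed by the authors. The tools HISAT2 and HTSeq (version 0.13.5) and the build GRCh38 come from the submitters' processing notes; the strand setting is not given in the sources used here. The deposited FPKM equal the count divided by exon-union length (GENCODE 29) and library total, with a largest relative departure of 5.72e-09 for genes with at least 200 counts.

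Raw counts were tested with edgeR 4.0.16 in R 4.3.3: the filterByExpr filter at its minimum of 10 counts, which kept 17617 genes, TMM scaling, 1 model with 4 groups, quasi-likelihood F tests and Benjamini-Hochberg adjustment over all genes, called at adjusted p under 0.05. Standard errors are the size of the log2 difference divided by the square root of F, and intervals cover 95%. TMM scaling means that a log2 difference need not equal a ratio of FPKM.

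Alternatives were DESeq2 1.42.0, DESeq2 size factors in edgeR, no filter, limma 3.58.1 on log2(FPKM + 1) and log2(FPKM + 0.1) where 2 or more libraries reached an FPKM of 1, lines as titled, each library left out, a replicate block, and a GC correction. The GC correction removed, in each library, a lowess trend (span 0.3) of each gene's deviation from its mean log2 CPM on the GC content of its longest transcript, as an edgeR offset. The main edgeR fit was tested on simulated counts with changes of known size and no GC trend. The alternatives, the GC correction among them, were not tested in this way. Leaving out a library that leaves 1 per arm assumes that it varies like the other groups.

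The 10 genes and the wider lists were chosen with earlier results of these data known. All 10 are named; of each wider list, the 2 genes per direction with the smallest p in the first 3 comparisons were named, and STAMBP was added to name all 7 that rose. For CHMP1A, the 3 nearest profiles were taken. Promoters came from RefSeq (GRCh38.p14), which held entries for 7 of the 10. Motifs were searched on both strands.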

Additional observations from a re-analysis of the deposited data

Results flagged for a closer look

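By the edgeR interaction test, the difference between libraries labelled NINJ1 and control differed between the lines for 4 of the 10 genes. Of all genes tested, 54.2% passed the same test. Differences are AGS minus HGC-27 on the log2 scale. The values were -3.10 for CHMP1A, -2.48 for CHMP6, 1.20 for PDCD6IP and 0.59 for TSG101. Each includes the single HGC-27 control, in which GC-rich genes had few counts. With the GC correction they were -0.87, 0.29, 0.44 and 0.15, of which those of CHMP1A and PDCD6IP still passed. Groups of 1 and 2 libraries were too small to look for single outlying libraries.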

How the results depend on the processing

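The main limits are the single control per line, the GC-poor composition of the HGC-27 control, and the conflict between titles and table names. In the check on that conflict, all 15 HGC-27 genes and all 13 AGS genes followed the table names. Fits with the lines as titled thus group libraries that the check placed in different lines. Groups of 1 and 2 libraries bound no small change, as the intervals show. Unless stated otherwise the cause of a change was not tested.

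In AGS, 1 of the 10 genes passed, beside 15% of all genes. With DESeq2, DESeq2 size factors, no filter and limma at either pseudocount 0 passed, beside 5.77% to 14.5% of all genes in those fits. With the lines as titled 0 passed, among the 10 and among all genes. The number among the 10 and the share of all genes also moved with 1 library left out. In HGC-27 5 passed, beside 63% of all genes, and 1 with the lines as titled, beside 12.2% of all genes in that fit. For the difference between the lines 4 passed, 0 as titled, and 3 to 7 with 1 library left out (7 without HGC-27 NINJ1 replicate 1). Between AGS and HGC-27 in the libraries labelled NINJ1 5 passed, beside 40.2% of all genes, and 0 as titled, as among all genes.

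The replicate block could be added only among the 4 libraries labelled NINJ1. There 5 genes passed with it and 5 without, with no call among the 10 changed. Of the 15562 genes tested in those fits, 7188 (46.2%) passed with it and 6940 (44.6%) without. No shared deviation of same-numbered libraries was detected (correlation 0.0084 over 17617 genes). Such a correlation cannot settle whether same-numbered libraries shared a culture or batch, which was not tested.

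These log2 differences changed sign. With the GC correction in HGC-27: CHMP3 0.080, CHMP4B -0.66, CHMP6 -0.51, VPS4A -0.39 and VPS4B 0.36. With it for the difference between lines: CHMP2A 0.87, CHMP3 -0.21, CHMP4B 0.70, CHMP4C -0.30, CHMP6 0.29, VPS4A 0.60 and VPS4B -0.35. With it between the lines: PDCD6IP -0.052. With limma on log2(FPKM + 1) and log2(FPKM + 0.1) in HGC-27: CHMP2A 0.32 and 0.33, CHMP3 0.047 and 0.056, VPS4B 0.063 and 0.068. With the same for the difference between lines: CHMP3 -0.062 and -0.072, CHMP4C -0.23 and -0.26. With DESeq2 and with its size factors: CHMP4B in AGS -0.0014 and -0.0013, VPS4A between the lines -0.0020 and -0.0018. With no filter: CHMP2A in HGC-27 0.0086.

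With the lines as titled, signs changed in AGS for CHMP2A (0.42) and CHMP6 (0.38), and in HGC-27 for CHMP3 (0.23) and CHMP4B (-0.034). For the difference between lines they changed for CHMP2A (1.01), CHMP3 (-0.72) and CHMP4B (0.16). Between the lines they changed for CHMP2A (0.27), CHMP3 (-0.097), CHMP4B (0.081), CHMP4C (0.16), CHMP6 (0.096), VPS4A (-0.024) and PDCD6IP (-0.067).

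With each library left out, the range crossed 0 in AGS for CHMP4B (-0.051 to 0.073), and in HGC-27 for CHMP2A (-0.33 to 0.18) and CHMP4B (-0.075 to 0.19). For the difference between lines it did so for CHMP2A (-0.46 to 0.058), CHMP4B (-0.18 to 0.088) and CHMP4C (-0.068 to 0.24). Between the lines it did so for VPS4A (-0.11 to 0.12) and PDCD6IP (-0.019 to 0.097). None of the values that changed sign by leaving out a library belonged to a gene that passed the test in that comparison.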
